A study of Mus musculus with 17 samples.

Results

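The mitochondrial protein import genes encode the translocases of the outer membrane (TOM) and inner membrane (TIM) and the proteins that work beside them. The set held every gene in the deposited table whose symbol begins with Tomm or Timm, without pseudogenes, together with Samm50, Pam16, Grpel1, Grpel2, Pmpca, Pmpcb, Chchd4 and Gfer. These were 34 of the 21982 genes in the table. Nearly all mitochondrial proteins are encoded in the nucleus, made in the cytosol and carried by chaperones to receptors of the TOM complex, which pass them through the Tom40 channel. Proteins with a cleavable presequence then enter the matrix through the TIM23 channel and its ATP-driven motor, carrier proteins are handed by small Tim chaperones to the TIM22 complex, and small cysteine-rich proteins are trapped in the intermembrane space by the oxidative relay of Chchd4 and Gfer. Brown fat, which produces heat through the uncoupling protein Ucp1, is densely packed with mitochondria.

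Messenger RNA was sequenced from brown adipose tissue of C57BL/6 wild-type mice (labelled Noc+/+) and littermates lacking Noct, the gene of the circadian protein nocturnin. Mice of each genotype were assigned at random to 22 °C or to 6 °C for 4 hours, housed singly and without food. At 22 °C there were 4 mice of each genotype, and the cold groups held 5 wild types and 4 knockouts. Each library came from a separate mouse. The series text gives ages of 10 to 20 weeks, whereas the age labels run from 11.14 to 23.57 in each genotype without a unit. The highest label was 23.57 at 22 °C and 23 at 6 °C in wild types, and 23.57 at 22 °C and 17 at 6 °C in knockouts. Age was left out of the main model and was added in an alternative. Sex was unbalanced, with 2 of 9 wild types and 6 of 8 knockouts labelled male, and was a term in the model. The labels name the knockouts by genotype alone, and the sources used here do not say which part of the gene was deleted.

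Library totals ran from 18410748 to 47598200 counts, of which 43.4% to 57.3% came from genes of the mitochondrial genome. Noct stood at 91.5 to 176 CPM (counts scaled to library size by the trimmed mean of M values) in wild types at 22 °C and 238 to 457 CPM at 6 °C, against 3.37 to 34.2 and 18.2 to 27.2 CPM in the knockouts, so no library went against its genotype label. All 10 brown adipocyte markers were detected in every group. Their summed level was 10848 to 12274 CPM in wild types and 10723 to 14268 CPM in knockouts at 22 °C, and 14227 to 17892 and 13848 to 17953 CPM at 6 °C. Of the 10, Ucp1, Dio2 and Elovl3 rose with cold in both genotypes, Adipoq and Prdm16 fell in wild types, and the list median was -0.01 in wild types and 0.09 in knockouts. Summed markers of skeletal muscle ran from 21.6 to 1140 CPM across single libraries with no called gene among 11 in either cold comparison, and 2 of 5 endothelial markers rose and 1 fell with cold in each genotype. Of 3 white adipocyte markers, Lep fell in each genotype (list medians -0.92 and -0.51), and of 6 macrophage markers, Cd163 rose in each, with list medians of -0.01 in wild types and 0.38 in knockouts, where all 6 were above 0. None of 4 red cell markers was called. Of all tested genes, 14.3% rose and 13.3% fell with cold in wild types, and 11.6% and 10.0% in knockouts. The part that these differences had in the values below was not tested. In whole tissue, fewer cells of a type and less RNA per cell cannot be told apart.

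The import genes covered a wide range of levels in brown fat. On the RPKM scale, which divides counts by gene length and library total, Samm50, the outer membrane channel that inserts barrel-shaped proteins, had the highest mean level over all 17 libraries, at 79.2 RPKM. It was followed by the small Tim chaperone Timm8b at 38.4, the receptor Tomm22 at 36.8, the nucleotide exchange factor Grpel1 at 35.2, the processing peptidase subunit Pmpcb at 27.4 and the receptor Tomm70a at 26.9 RPKM. The Samm50, Tomm22 and Tomm70a levels depended on the gene length the authors used, 1673, 1113 and 3778 bases. The union of annotated exons is 6556, 1651 and 9777 bases. The authors' length equalled that union for 26 of the 33 members with a length. With those longer lengths the mean levels would be 20.2, 24.8 and 10.4 RPKM. Timm8b would then rank first, and Tomm22 would fall below Grpel1 and Pmpcb. At the other end, Tomm6, a small subunit of the TOM complex, averaged 0.540 RPKM and Timm8a1 averaged 0.528 RPKM.

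Of the 34 genes, 32 passed the filter on low counts and were tested. Tomm20l, a relative of the receptor Tomm20, had no count in any of the 17 libraries, and 3 counts, the limit that a count of 0 allows, correspond to 0.0630 to 0.163 CPM in these libraries. Timm8a2, a relative of Timm8a1, had 10 counts in all, spread over 6 libraries. Both were left out of the tests.

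Among close relatives encoded by separate genes, the ratio of levels differed widely between pairs. Timm17a exceeded Timm17b, the alternative subunit of the TIM23 channel, by a ratio of RPKM values of 1.89 ± 0.33 (SD, n = 4) in wild types at 22 °C and 2.48 ± 0.49 (SD, n = 5) at 6 °C. Grpel1 exceeded Grpel2, both exchange factors of the matrix Hsp70 motor, by 9.78 ± 1.19 (SD, n = 4) at 22 °C and 7.56 ± 0.50 (SD, n = 5) at 6 °C in wild types. In the knockouts that ratio was 11.3 ± 1.21 (SD, n = 4) at 22 °C and 8.30 ± 1.72 (SD, n = 4) at 6 °C, so Grpel2 made up more of the pair in the cold in both genotypes. These ratios rest on the authors' length of 4030 bases for Grpel2, and at its annotated 6759 exon bases each would be 1.68 times as large, for example 16.4 ± 2.00 (SD, n = 4) in wild types at 22 °C. Tomm40 and Tomm40l, the channel protein and its relative, were nearly equal, with group mean ratios of 0.927 to 1.02. The Tomm40l level is uncertain, since 64.3% of its exon bases overlap Nr1i3 on the opposite strand and the sources used here do not give the strand setting of the counting.

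**Figure D1:**
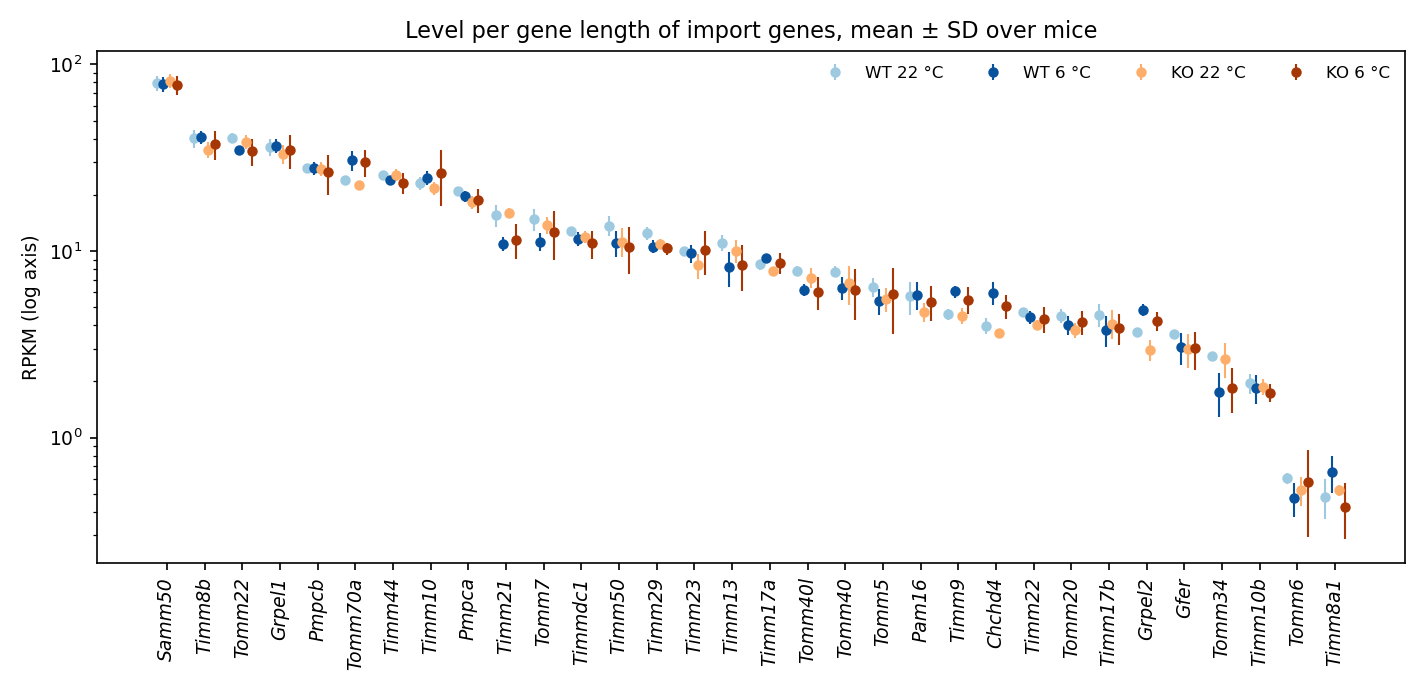
Level of each import gene in brown fat. The vertical log axis is RPKM, points are group means and bars are SDs over 4 or 5 mice for the 4 combinations of genotype and temperature, and the tested genes are ordered along the horizontal axis by mean level. Samm50 has the highest mean at 79.2 RPKM and Timm8a1 the lowest of the tested genes at 0.528 RPKM.

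Cold exposure for 4 hours changed few import genes in wild-type brown fat. Chchd4, Grpel2, Timm9, Tomm70a and Timm17a rose and Tomm34 fell, by edgeR's quasi-likelihood test at a Benjamini-Hochberg adjusted p below 0.05. The channel proteins Tomm40, Timm23 and Timm22 did not pass the test. The 6 called genes were 18.8% of the 32 tested members, against 27.6% of all genes tested. The 5 that rose were 15.6% against 14.3% of all genes, and the 1 that fell was 3.12% against 13.3%. The median log2 change of the tested members was 0.10, against -0.03 over all genes, but it was -0.10 against -0.23 when libraries were scaled to their total counts. At that scaling 4 of the 32 tested members rose and 3 fell, against 860 and 2873 of all 12486 genes.

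In the knockouts Chchd4, Grpel2 and Tomm70a rose with cold and no member fell. These 3 were 9.38% of the tested members, against 11.6% of all genes that rose, 10.0% that fell and 21.6% called in either direction. With scaling to total counts 3 members rose and 1 fell, against 1039 and 1327 of all 12486 genes. All 3 were also called in wild types, 3 further members were called in wild types without passing the test in knockouts, and 26 members passed in neither genotype. The difference between the cold responses of the genotypes was tested for each gene and is given after the single genes.

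**Figure D2:**
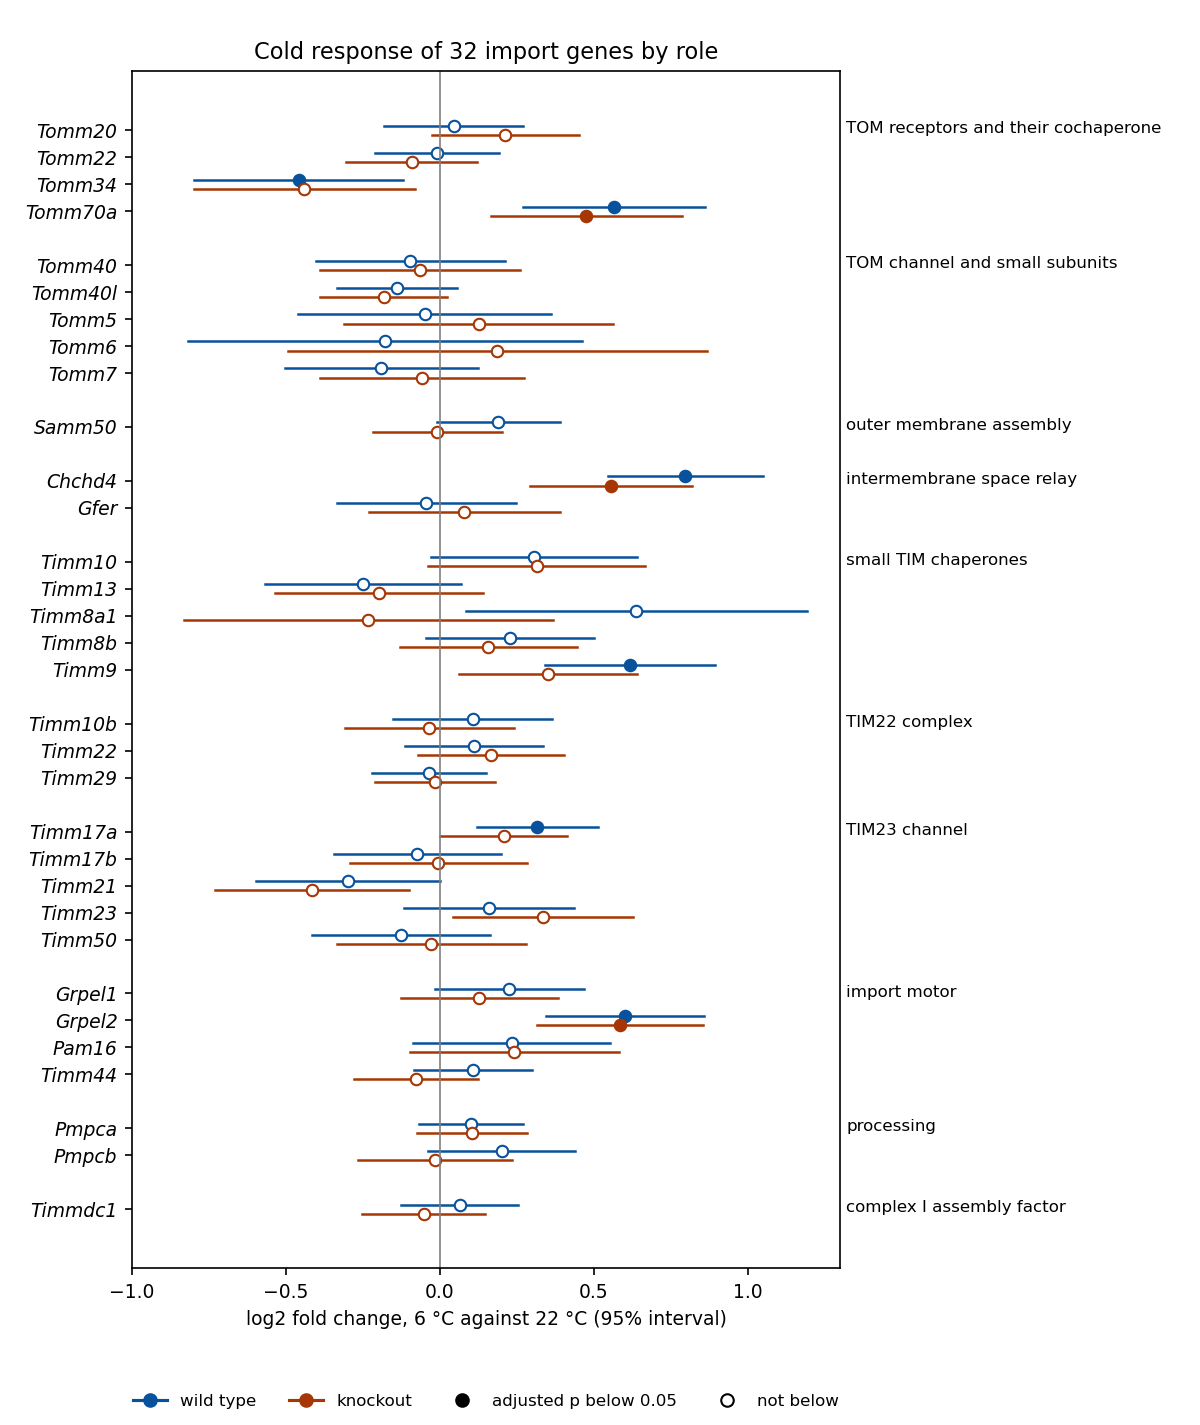
Cold response of the 32 tested import genes, grouped by role. The horizontal axis is the log2 fold change at 6 °C against 22 °C with its 95% confidence interval, blue for wild type and orange for knockout, and filled points have an adjusted p below 0.05. Chchd4, Grpel2 and Tomm70a are filled in both genotypes, and the lowest values are those of Tomm34.

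Tomm70a, the receptor that takes carrier precursors from cytosolic chaperones, was the abundant member that rose. Its level was 80.8, 86.6, 80.5 and 76.6 CPM in the 4 wild types at 22 °C and 126.6, 135.9, 136.5, 92.2 and 106.4 CPM in the 5 at 6 °C. Every wild type at 6 °C was above every wild type at 22 °C, a change of 0.57 ± 0.14 on the log2 scale (SE; adjusted p = 0.0067, edgeR). In the knockouts it was 84.3, 81.8, 77.2 and 102.7 CPM at 22 °C and 94.8, 133.4, 156.4 and 100.3 CPM at 6 °C. Those groups overlapped, because the highest knockout at 22 °C exceeded the lowest pair at 6 °C. The change was 0.48 ± 0.15 (SE; adjusted p = 0.0275, edgeR), and it missed the threshold without replicate 2 or 3 of the knockouts at 22 °C, with adjusted p = 0.0792 and 0.0719, or without replicate 2 or 3 of the knockouts at 6 °C, with adjusted p = 0.0557 and 0.0962.

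Neither of the other receptors passed the test in either genotype. Tomm20, the main presequence receptor, changed by 0.04 log2 units in wild types and 0.21 in knockouts. Tomm22, the central receptor that organises the TOM complex, gave -0.01 ± 0.10 and -0.09 ± 0.10 (SE). Tomm34, a cytosolic cochaperone of Hsp70 and Hsp90 that binds precursors, was low throughout. It was 6.99, 7.85, 7.68 and 7.13 CPM in wild types at 22 °C and 4.82, 4.90, 4.15, 6.47 and 6.65 CPM at 6 °C, with no overlap. It fell by 0.46 on the log2 scale (SE 0.16, adjusted p = 0.0417, edgeR).

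The Tomm34 call was the least firm of the 6. It was lost without any single wild type at 22 °C, with adjusted p from 0.0647 to 0.134, without replicate 1, 2 or 3 of the wild types at 6 °C, with adjusted p of 0.0871, 0.0967 and 0.112, and without replicate 1, 2 or 3 of the knockouts at 22 °C or 1 or 2 of the knockouts at 6 °C, with adjusted p of 0.0528 to 0.056. In the knockouts Tomm34 was 9.22, 8.72, 7.72 and 6.58 CPM at 22 °C and 5.78, 5.99, 4.53 and 7.39 CPM at 6 °C, with an overlap, and the value of -0.44 ± 0.17 (SE) did not pass the test at an adjusted p of 0.0744. It passed there without replicate 4 of the knockouts at 22 °C, with -0.52 and adjusted p = 0.0474, or at 6 °C, with -0.56 and adjusted p = 0.0324.

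No member of the TOM channel group passed the test in either genotype. Tomm40, which forms the pore through which nearly all precursors cross the outer membrane, gave -0.10 ± 0.15 (SE; 95% interval -0.40 to 0.21) in wild types and -0.06 ± 0.15 (SE) in knockouts. Tomm40l, Tomm5, Tomm6 and Tomm7, the relative of the pore and the small subunits, ranged with Tomm40 from -0.19 to -0.05 in wild types and from -0.18 to 0.19 in knockouts. Tomm6 had only 7 to 33 counts per library, and 75.9% of its exon bases lie in a second annotated gene on the same strand, so its value is uncertain. Samm50, which inserts Tomm40 and other barrel proteins into the outer membrane, gave 0.19 ± 0.09 (SE; 95% interval -0.01 to 0.39) in wild types and -0.01 ± 0.10 (SE) in knockouts.

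Chchd4, the oxidoreductase also called MIA40 that traps cysteine-rich proteins in the intermembrane space, had the largest change of all members in wild types. It was 19.3, 20.6, 16.3 and 17.6 CPM in wild types at 22 °C and 36.7, 36.3, 33.1, 24.2 and 29.5 CPM at 6 °C. The temperatures did not overlap, and the fold change was 1.74 (log2 0.80 ± 0.12, SE; adjusted p = 0.000188, edgeR). In knockouts it was 18.6, 18.9, 18.4 and 20.1 CPM at 22 °C and 25.8, 33.6, 28.4 and 24.3 CPM at 6 °C. Again no library overlapped, with a fold change of 1.47 (log2 0.56 ± 0.13, SE; adjusted p = 0.00447, edgeR). Its call held in both genotypes under all 30 alternative settings. Gfer, the sulfhydryl oxidase that reoxidises Chchd4, gave -0.04 log2 units in wild types and 0.08 in knockouts and did not pass the test.

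**Figure D3:**
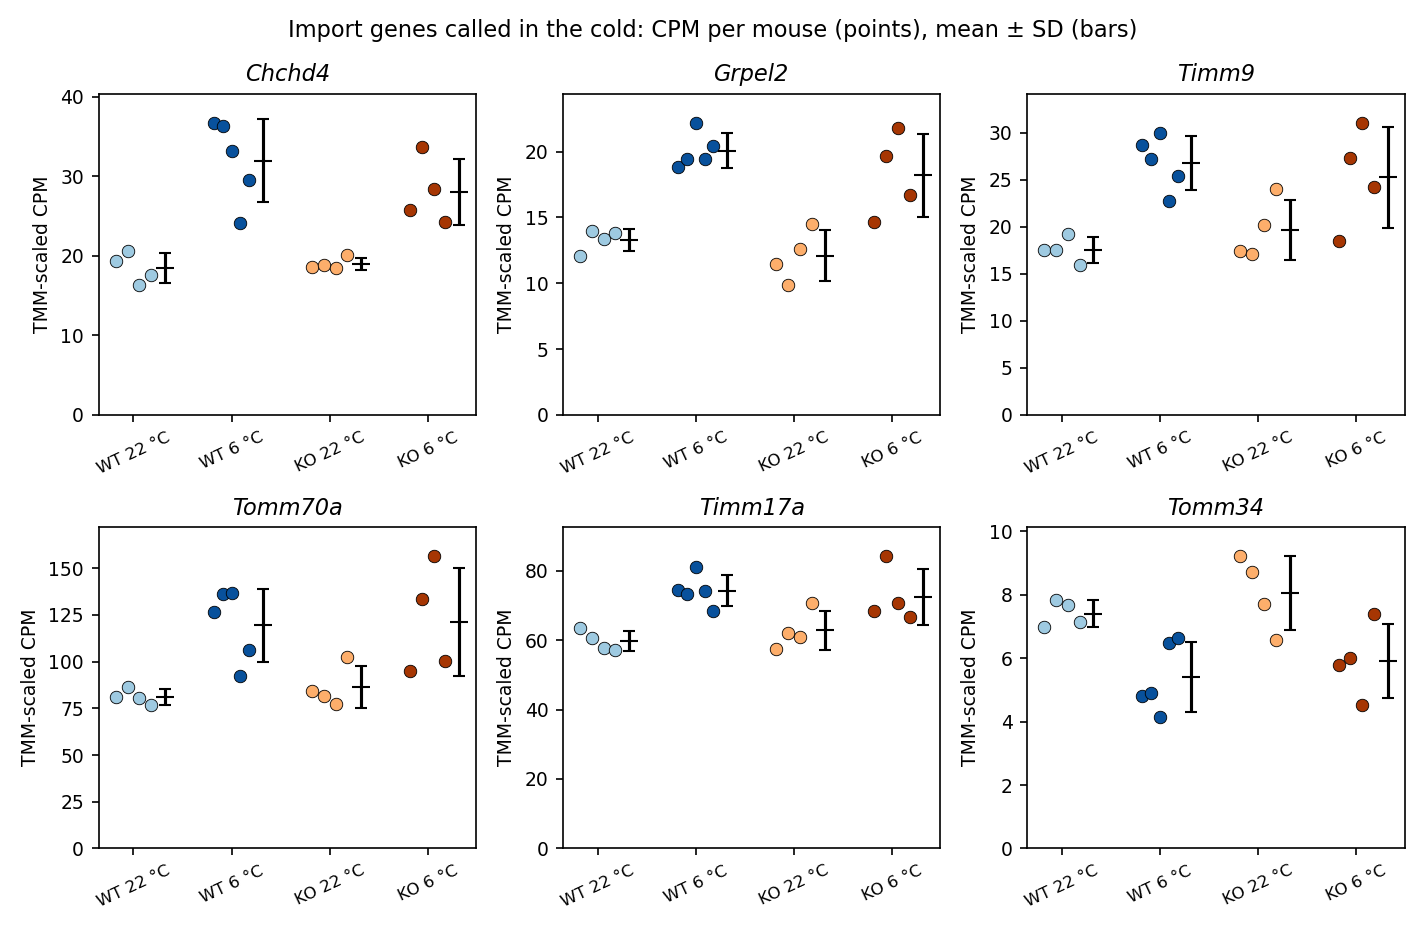
Levels of the 6 import genes called in the cold. Each panel has one gene, the vertical axis is scaled CPM from 0, points are single mice in the 4 groups, and bars are the mean ± SD. Chchd4 and Grpel2 do not overlap between 22 °C and 6 °C in either genotype, whereas Tomm70a and Tomm34 overlap in the knockouts.

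Among the small Tim proteins, which chaperone hydrophobic precursors across the intermembrane space, Timm9 was the only gene of 5 tested that passed the test in wild types, and none passed in knockouts. Timm9, which builds a ring with Timm10, was 17.5, 17.5, 19.3 and 15.9 CPM in wild types at 22 °C and 28.7, 27.1, 30.0, 22.7 and 25.4 CPM at 6 °C. All cold wild types were higher, by 1.53-fold (log2 0.62 ± 0.13, SE; adjusted p = 0.00249, edgeR). In knockouts it was 17.4, 17.1, 20.1 and 24.0 CPM at 22 °C and 18.4, 27.3, 31.0 and 24.2 CPM at 6 °C, which overlapped. The value of 0.35 ± 0.14 (SE) had an adjusted p of 0.0782, and it passed without replicate 4 of the knockouts at 22 °C, with 0.45 and adjusted p = 0.036, or without replicate 1 of those at 6 °C, with 0.48 and adjusted p = 0.0231.

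Timm10, the ring partner of Timm9, gave 0.31 ± 0.16 (SE; adjusted p = 0.161) in wild types and 0.31 ± 0.17 (SE; adjusted p = 0.2) in knockouts. Timm8b gave 0.23 and 0.16, and Timm13, the other subunit of the second small Tim ring, gave -0.25 and -0.20, none passing the test. Timm8a1 had 11 to 38 counts per library. Its values were 0.64 ± 0.26 (SE) in wild types and -0.23 ± 0.29 (SE) in knockouts, with adjusted p = 0.0798 and 0.63 (edgeR), and the wild-type value passed without replicate 4 of the wild types at 6 °C, with 0.76 and adjusted p = 0.0399.

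The TIM22 complex, which inserts carrier proteins into the inner membrane, had 3 tested members and none passed in either genotype. Timm22, its channel, gave 0.11 ± 0.11 (SE) in wild types and 0.17 ± 0.11 (SE) in knockouts. Timm10b, the small Tim that docks on the complex, and Timm29, a structural subunit, lay between -0.03 and 0.11 in both genotypes.

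In the TIM23 channel complex, which takes presequence proteins across or into the inner membrane, 1 of 5 members rose in wild types and none passed in knockouts. The one that rose was Timm17a, the channel subunit known in cultured human cells to be degraded under stress. It was 63.5, 60.6, 57.7 and 57.2 CPM in wild types at 22 °C and 74.3, 73.2, 81.1, 74.2 and 68.4 CPM at 6 °C. The temperatures did not overlap, at 1.25-fold (log2 0.32 ± 0.09, SE; adjusted p = 0.0178, edgeR). In knockouts it was 57.6, 62.1, 60.9 and 70.6 CPM at 22 °C and 68.4, 84.1, 70.7 and 66.6 CPM at 6 °C, which overlapped, and the value of 0.21 ± 0.10 (SE) had an adjusted p of 0.145. The wild-type call held with each of the 17 libraries left out and in 9 of the 13 other settings. Total-count scaling was among the settings where it was lost, with a value of 0.11 and an adjusted p of 0.350 (edgeR).

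Timm23, the central subunit of that channel, gave 0.16 ± 0.13 (SE; adjusted p = 0.395) in wild types and 0.33 ± 0.14 (SE; adjusted p = 0.0983) in knockouts. The lowest cold knockout was replicate 3, at 13.58 CPM, and the other cold knockouts had 18.61 to 24.09 CPM. Without that library the value was 0.47 with an adjusted p of 0.00905 (edgeR). Its removal was not particular to Timm23, since the knockout median over the 32 tested members was then 0.135, against 0.037 with it. Timm17b, the relative of Timm17a, and Timm50, the receptor of the complex, lay between -0.13 and 0.00 in both genotypes. Timm21, which links the channel to the respiratory chain, was lower in the cold in both genotypes without passing the test, at -0.30 ± 0.14 (SE; adjusted p = 0.126) and -0.41 ± 0.15 (SE; adjusted p = 0.0568). With total-count scaling it passed in both, at -0.51 with adjusted p = 0.00742 and -0.48 with adjusted p = 0.0192, and in knockouts also without replicate 2 at 6 °C, at -0.56 with adjusted p = 0.0112.

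The import motor, which pulls precursors into the matrix, had 4 tested members, of which Grpel2 rose in both genotypes and the other 3 did not pass. Grpel2 was 12.1, 13.98, 13.4 and 13.8 CPM in wild types at 22 °C and 18.8, 19.5, 22.2, 19.5 and 20.4 CPM at 6 °C. In knockouts it was 11.4, 9.88, 12.6 and 14.5 CPM at 22 °C and 14.6, 19.6, 21.8 and 16.7 CPM at 6 °C. The temperatures did not overlap in either genotype, although the lowest cold knockout was only just above the highest at 22 °C. The folds were 1.52 (log2 0.60 ± 0.12, SE; adjusted p = 0.00174) and 1.5 (log2 0.58 ± 0.13, SE; adjusted p = 0.00376, edgeR), and both calls held under all 30 alternative settings.

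Grpel1, the more abundant relative of Grpel2, gave 0.23 ± 0.12 (SE; adjusted p = 0.154) in wild types and 0.13 in knockouts. Pam16, a regulator of the motor's J-protein, gave 0.23 and 0.24, and Timm44, which anchors the motor at the channel, gave 0.11 and -0.08. Pmpca and Pmpcb, the subunits of the peptidase that cuts off presequences, did not pass in either genotype. Pmpcb, the member with the highest mean CPM, was 123.1, 131.7, 123.8 and 131.2 CPM in wild types at 22 °C and 140.9, 134.6, 158.1, 152.5 and 146.2 CPM at 6 °C. It was the only gene without overlap in wild types that missed the threshold, at 0.20 ± 0.11 (SE; adjusted p = 0.198, edgeR). In knockouts it was 130.3, 138.5, 152.4 and 155.4 CPM at 22 °C and 149.1, 154.7, 105.1 and 161.2 CPM at 6 °C, which overlapped, and the value was -0.02 ± 0.12 (SE). Pmpca gave 0.10 in both genotypes. Timmdc1, which shares the name but is a complex I assembly factor, gave 0.06 and -0.05.

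Counted without the model, 7 of the 32 members did not overlap between temperatures in wild types, 6 of them higher and 1 lower in the cold. They were 21.9% of the tested members, and 25.8% of all genes did not overlap in either direction. In knockouts 2 members, Chchd4 and Grpel2, did not overlap and both were higher, or 6.25% against 20.2% of all genes. Cold knockouts were the most variable group for these genes, with a median coefficient of variation of 16.2% over members, against 7.47% for wild types at 22 °C, 10.1% for wild types at 6 °C and 9.66% for knockouts at 22 °C. Replicate 2 of the cold knockouts was the highest of its group for 17 members and replicate 3 the lowest for 16. Among the knockouts at 22 °C, replicate 4 was the highest of its group for 20 members. These replicates 3 and 4 had 57.0% and 57.3% of their counts from mitochondrially encoded genes, the highest shares of all libraries.

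The promoters of 4 of the 5 genes that rose are shown because these genes moved in the same direction. They are RefSeq windows of 300 bases on GRCm38.p6, written 5′ to 3′ on the gene's strand from 250 bases before to 50 after the annotated start, with motif matches in capitals. Chchd4 is at chr6:91473374-91473673 on the minus strand, Timm9 at chr12:71136626-71136925 on the minus strand, Tomm70a at chr16:57121464-57121763 on the plus strand and Timm17a at chr1:135313688-135313987 on the minus strand.
Chchd4: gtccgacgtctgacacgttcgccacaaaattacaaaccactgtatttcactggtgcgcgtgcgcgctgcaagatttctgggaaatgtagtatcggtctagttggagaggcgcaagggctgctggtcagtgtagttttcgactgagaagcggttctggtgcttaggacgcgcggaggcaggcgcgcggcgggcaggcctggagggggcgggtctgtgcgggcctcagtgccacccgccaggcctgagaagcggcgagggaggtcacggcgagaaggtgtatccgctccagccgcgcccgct
Timm9: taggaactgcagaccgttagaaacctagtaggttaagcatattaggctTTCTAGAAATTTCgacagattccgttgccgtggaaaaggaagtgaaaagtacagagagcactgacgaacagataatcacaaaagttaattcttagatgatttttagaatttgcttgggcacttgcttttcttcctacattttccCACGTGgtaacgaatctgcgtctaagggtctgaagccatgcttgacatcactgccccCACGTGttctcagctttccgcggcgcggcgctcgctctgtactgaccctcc
Tomm70a: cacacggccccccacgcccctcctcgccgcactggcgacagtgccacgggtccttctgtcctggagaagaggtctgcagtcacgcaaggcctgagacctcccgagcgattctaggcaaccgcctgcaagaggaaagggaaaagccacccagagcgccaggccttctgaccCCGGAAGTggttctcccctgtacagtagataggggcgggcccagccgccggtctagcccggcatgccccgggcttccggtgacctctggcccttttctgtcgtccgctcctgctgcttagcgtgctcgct
Timm17a: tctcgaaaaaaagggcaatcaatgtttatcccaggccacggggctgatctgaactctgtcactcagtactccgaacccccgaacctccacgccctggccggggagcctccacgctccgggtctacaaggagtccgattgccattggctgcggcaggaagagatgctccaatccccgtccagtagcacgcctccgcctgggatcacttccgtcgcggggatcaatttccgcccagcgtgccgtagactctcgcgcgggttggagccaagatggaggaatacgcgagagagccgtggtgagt
The Timm9 window holds a heat shock element, built of alternating GAA and TTC units, at position -202 from the start, and also the E-box CACGTG at 2 places. The Tomm70a window holds the ETS motif CCGGAAGT at -80. The Chchd4 and Timm17a windows hold none of the 6 motifs searched, which says only that these letters are not in these windows.

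The 6 motifs were searched on both strands in 32 windows of 30 members and in all 32851 mouse windows of the same table, and no matches overlapped each other in the windows shown. The heat shock element was in 1 member window, that of Timm9, and in 0.603% of all windows. The ETS motif was in 8 of the 32 (25%), against 3.89% of all windows. Besides Tomm70a the members were Pmpcb, Timm10, Timm10b, Timm23, Timm29 and Timmdc1, which were not called, and Timm8a2, which was not tested. The E-box was in 5, against 7.15% of all. The NRF1 motif was searched as 1 fixed run of letters (0.971% of all windows), and other forms of it were not searched. That run, the cAMP response element TGACGTCA (1.79%) and the C/EBP-ATF element TGATGNAA (3.97%) were in none of the 32. These matches describe the letters only.

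The 6 called genes lay on different chromosomes, with Chchd4 on chromosome 6, Grpel2 on 18, Timm9 on 12, Tomm70a on 16, Timm17a on 1 and Tomm34 on 2. In the GENCODE annotation, 16 of the 34 members share exon bases with another gene, 14 of them with a gene on the opposite strand. Chchd4, Grpel2, Timm17a and Tomm34 share none, and Timm9 and Tomm70a share 1.14% and 0.42% of theirs. The larger overlaps were in members that were not called, such as Pmpca with 20.4% shared with Inpp5e.

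Loss of Noct was not accompanied by a called difference in any import gene. At 22 °C 0 of the 32 members passed by edgeR, and 0 by DESeq2, against 2 of 12486 genes (0.0160%) by edgeR and 10 of 12485 (0.0801%) by DESeq2. At an unadjusted p below 0.05 there was 1 member (3.12%, against 3.89% of all genes), Samm50, named after its values were seen. Samm50 was 129.0, 120.1, 108.4 and 116.6 CPM in wild types and 133.5, 139.7, 140.2 and 140.2 CPM in knockouts at 22 °C. The genotypes did not overlap, with a difference of 0.23 ± 0.11 on the log2 scale (SE; adjusted p = 0.998, edgeR). Timm44 was the other member without overlap, at 79.5 to 86.5 CPM in wild types and 88.4 to 99.96 CPM in knockouts. These 2 members were 6.25% of those tested, and 4.22% of all genes did not overlap.

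At 6 °C 0 of the 32 members passed by edgeR, and 0 by DESeq2, against 5 of 12486 genes (0.0400%) by edgeR and 12 of 12485 (0.0961%) by DESeq2. At an unadjusted p below 0.05 there were 2 members (6.25%, against 3.15% of all genes), Timm8a1 at -0.68 ± 0.29 (SE) and Chchd4 at -0.28 ± 0.13 (SE), each with an adjusted p of 0.999 (edgeR). No member was without overlap, against 1.04% of all genes. The 95% intervals of the genotype differences had a median half-width of 0.31 log2 units at 22 °C and 0.30 at 6 °C. For Chchd4 the interval at 6 °C ran from -0.55 to 0.00, and for Grpel2 from -0.51 to 0.06.

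The test of whether cold acted differently in knockouts, with the wild-type response subtracted from theirs, passed for 0 of the 32 members by edgeR and for 0 by DESeq2, against 1 of 12486 genes (0.00801%) by edgeR and 1 of 12485 by DESeq2. The genes called in wild types alone are therefore not shown to respond differently in knockouts. The difference was -0.27 ± 0.19 (SE; 95% interval -0.66 to 0.13) for Timm9, -0.11 ± 0.13 (SE; -0.39 to 0.17) for Timm17a and 0.02 ± 0.23 (SE; -0.48 to 0.51) for Tomm34. For the genes called in both genotypes it was -0.24 ± 0.17 (SE; -0.60 to 0.12) for Chchd4, -0.02 ± 0.18 (SE; -0.39 to 0.35) for Grpel2 and -0.09 ± 0.20 (SE; -0.52 to 0.34) for Tomm70a. At an unadjusted p below 0.05 there was 1 member (3.12%, against 2.48% of all genes), Timm8a1, at -0.87 ± 0.39 (SE). Its level was 0.423 to 0.760 CPM and 0.618 to 1.203 CPM in wild types at 22 °C and 6 °C, and 0.726 to 0.791 and 0.474 to 0.928 CPM in knockouts, so all groups overlapped.

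Among the genes that act before and after the translocases, the cytosolic chaperones had the highest list median in the cold. Beside the counts below, 14.3% of all tested genes rose and 13.3% fell in wild types, and 11.6% and 10.0% in knockouts. Of 8 cytosolic chaperones that deliver precursors, 7 rose with cold in each genotype, with a list median of 1.26 log2 units in wild types and 0.89 in knockouts. Hsp90aa1, the inducible Hsp90, rose by 1.91 ± 0.27 in wild types and 1.52 ± 0.27 (SE) in knockouts, and Hspa8, the constitutive Hsp70, by 1.56 ± 0.20 and 1.51 ± 0.20 (SE). The J-protein Dnaja4 rose by 1.43 ± 0.20 and 0.97 ± 0.20 (SE). The difference between the cold responses passed for none of these 8 chaperones, although all 8 values were below 0, with a list median of -0.25. The genotype difference at 6 °C also passed for none, with a list median of -0.56. There 6 of the 8 had an unadjusted p below 0.05 (edgeR), against 3.15% of all genes. Of 8 matrix chaperones, 3 rose in wild types and none passed in knockouts. They were Hspe1 at 0.80 ± 0.24, Hspd1 at 0.71 ± 0.15 and Hspa9, the Hsp70 of the import motor, at 0.46 ± 0.12 (SE), with knockout values of 0.51, 0.35 and 0.20. The difference between the genotypes in response did not pass for any of the 3, at -0.29, -0.36 and -0.26.

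Dnajc11, an outer membrane protein associated with Samm50, was the 1 of 6 outer membrane partners that rose, at 0.34 ± 0.09 in wild types and 0.27 ± 0.09 (SE) in knockouts. Oma1, a stress-activated inner membrane protease, was the 1 of 10 quality control genes that passed, falling in wild types by 0.50 on the log2 scale (SE 0.14), and it was -0.42 ± 0.15 (SE; adjusted p = 0.0532) in knockouts. None of 5 further peptidases and none of 4 insertion and relay partners passed in either genotype. These lists are short beside the shares of all tested genes, 14.3% that rose and 13.3% that fell in wild types and 11.6% and 10.0% in knockouts. The most abundant of each by RPKM were Mipep, the intermediate peptidase, at 0.17 ± 0.09 and -0.03 ± 0.10 log2 units (SE), and Aifm1, which brings Chchd4 into the intermembrane space, at 0.21 ± 0.10 and -0.03 ± 0.10 (SE). Of 5 genes chosen as reporters of import stress, only Atf4 passed, rising by 1.36 ± 0.18 and 1.72 ± 0.19 (SE). Whether the Atf4 rise came from import stress was not tested. Of 7 genes used as markers of mitochondrial mass, 4 rose in wild types and none passed in knockouts, namely Hspa9, Cycs at 0.46 and 0.22, Vdac3 at 0.41 and 0.09 and Vdac2 at 0.36 and 0.13. The difference between the cold responses passed for none of the 7, with a list median of -0.23.

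**Figure D4:**
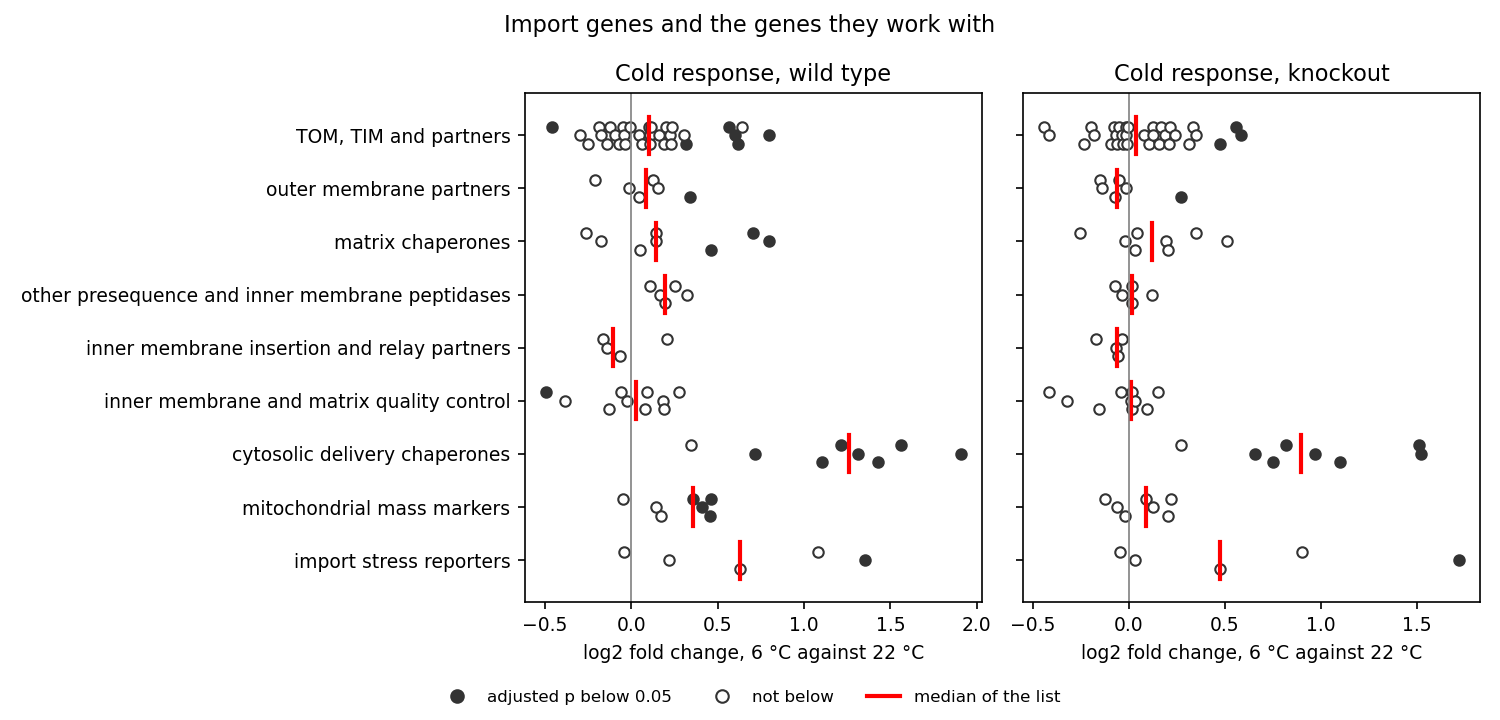
Cold responses of the import genes beside lists of genes they work with, in wild types (left) and knockouts (right). The horizontal axis is the log2 fold change at 6 °C against 22 °C, each point is a gene, filled where its adjusted p is below 0.05, and the red bar is the list median. The cytosolic chaperones have the highest medians, 1.26 and 0.89, and the import genes stand at 0.10 and 0.04.

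Summed over all members, the import genes took up 1081 ± 12.5 CPM (SD, n = 4) in wild types at 22 °C and 1224 ± 43.2 CPM (SD, n = 5) at 6 °C. The sums were 1148 ± 55.4 CPM (SD, n = 4) and 1219 ± 106 CPM (SD, n = 4) in knockouts. Taken as a share of all counts, mitochondrial transcripts included, they were 0.118% to 0.124% and 0.115% to 0.127% in wild types, and 0.105% to 0.122% and 0.0949% to 0.130% in knockouts. The temperatures were apart in wild types on the first scale and overlapped on the second. These sums are a description and were not tested.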

How the data were processed

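Per the submitters' processing notes, the authors used STAR and HTSeq with builds named as mm10 and GRCm38.p6. Versions, annotation and strand setting are not given in the sources used here. The deposited values were raw counts per gene and the authors' RPKM, which equalled counts divided by library total and gene length to a relative spread of 9.8e-15 and were used for levels between genes. Columns were matched to mice by name.

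The count models were fitted with edgeR 4.0.16 (R 4.3.3). The filter filterByExpr left 12486 of 21982 genes, libraries were scaled by TMM, and the quasi-likelihood model had 4 group means and sex (12 residual degrees of freedom). Comparisons were 6 °C against 22 °C within each genotype, knockout against wild type within each temperature, and their interaction. P-values were adjusted over all tested genes by Benjamini-Hochberg at 0.05, and intervals are 95%. The code was tested on simulated data. Alternatives were DESeq2 1.42.0, limma 3.58.1 on log2(RPKM + 1) and log2(RPKM + 0.1), other scalings, filters, covariates and blocks, and each library left out. Library totals of 18410748 to 47598200 counts set the precision, and the zero limit covers counting error only. RPKM, positions (GENCODE vM21, 34 of 34 matched) and RefSeq promoters (GRCm38.p6, 30 of 34) were looked up by symbol. Values per mouse are given for members called in any comparison and for the member of highest mean CPM, core subunits of each complex are named whether called or not, and each list is given by counts with up to 3 called genes or its most abundant gene. Members named for an unadjusted p or for groups without overlap were picked after their values were seen. The members and lists were chosen with earlier results of these data known.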

Additional observations from a re-analysis of the deposited data

Results flagged for a closer look

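Within single groups, 5 of the 128 sets of member values (32 members in 4 groups) were flagged by Dixon's ratio. This ratio is the gap between 1 mouse and its nearest neighbour, as a share of the range of its group. It was 0.744 to 0.973 in the 5 sets. It can be large where the other mice lie close together, so it does not give the size of the difference in level. Chance gives about 1 in 20 groups. Pmpca, the peptidase subunit, was 81.7 CPM in replicate 1 of the wild types at 6 °C, against 86.63 to 88.32 CPM in the others. Samm50 was 133.5 CPM in replicate 1 of the knockouts at 22 °C, against 139.7 to 140.2 CPM. Timm10 was 22.77 CPM in replicate 4 of the knockouts at 22 °C, against 16.48 to 16.65 CPM. Tomm22 was 49.61 CPM in replicate 2 of the knockouts at 6 °C, against 36.83 to 38.81 CPM. Tomm40l was 26.17 CPM in replicate 3 of the knockouts at 6 °C, against 34.3 to 35.52 CPM.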

How the results depend on the processing

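Under 30 alternatives no member's cold response that was called changed sign, and Chchd4 and Grpel2 in both genotypes and Timm9 and Tomm70a in wild types passed in all 30. In wild types 4 to 7 members rose, 5 to 6 with 1 library left out. Over all genes 1786 of 12486 rose in the report. The alternatives ran from 854 of 12486 with limma on log2(RPKM + 0.1) to 2147 of 12216 with only the groups compared. With 1 library left out they ran from 1414 of 12581 to 1992 of 12621. The count that fell in wild types, 1 in the report, was 3 with total-count scaling, 0 with no low-count filter, 0 with only the majority sex of each genotype, 4 with limma on log2(RPKM + 1), 2 on log2(RPKM + 0.1), and 0 to 1 with 1 library left out. Over all 12486 genes, 1664 fell in the report, 2873 with total-count scaling, and 3115 and 2959 with these limma tests. With no low-count filter 1552 of 17103 genes fell, and with the majority sex 1063 of 12474. In knockouts 2 to 4 members rose with 1 library left out. Over all genes 1446 of 12486 rose there in the report, and 1111 of 12599 to 1659 of 12610 with 1 library left out. The count that fell in knockouts, 0 in the report, was 1 with total-count scaling, 1 with DESeq2, 1 without the sex term, 1 with either RPKM test, and 0 to 1 with 1 library left out. Over all genes 1251 fell in knockouts in the report, 1327 with total-count scaling, 1362 with DESeq2 and 1260 without the sex term. With the RPKM tests 1387 and 1370 fell. The cause was not tested.

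With total-count scaling the median over all genes was -0.23 in wild types (-0.03 in the report) and -0.09 in knockouts (-0.02). Tomm34 in wild types passed in 16 of 30, Timm17a in wild types in 26 and Tomm70a in knockouts in 23. Deviations of same-numbered mice correlated from -0.43 to 0.51, so the numbers were not taken to pair samples. With the replicate number as a block, 2 members rose in knockouts, and Tomm70a had an adjusted p of 0.0587. Over all 12486 genes 1203 rose in knockouts with the block and the sex term, and 1248 with the block alone. The counts of 0 for genotype and for the difference between responses stayed 0 under all alternatives run. Each group of 4 or 5 mice limits what can be seen, and Tomm6 and Timm8a1 have few counts.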
